A study of Mus musculus with 53 samples.

Results

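Single hematopoietic stem cells (HSCs) of adult mice were divided by their level of the long non-coding RNA (lncRNA) H19: 8 cells had H19 at 1 or more and 17 cells had H19 below 1. These are the 25 adult cells whose column has a name of its own, out of 26 adult HSC libraries and 53 libraries in the whole series. The groups were chosen by the measured H19 value of the same cells, so every difference between them is given as a description with no test. The study deals with lncRNAs in the formation of HSCs in the embryo, and its other single-cell RNA libraries, from T1 pre-HSCs of embryonic day 11, were not used here. All 25 cells carry the labels wildtype, adult and HSC. They were sorted by flow cytometry out of bone marrow of C57 mice, and poly(A) RNA of each was made into a library by the single-cell method of Tang and coworkers. No label names the animal, sex, age in weeks or day of sorting of a cell. Each H19 group therefore counts as 1 sample, cells of 1 group may share an animal, and whether animals differ between the groups was not tested.

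H19 is an imprinted gene: the maternal copy is transcribed, and the copy inherited from the father is silent. It lies beside the growth factor gene Igf2, whose paternal copy is the active one, and both are governed by an imprinting control region bound by CTCF on the maternal chromosome. H19 RNA is abundant in the embryo and low in most adult tissues, and in adult blood formation it is known from work on the quiescence of long-term HSCs. The H19 transcript also carries the hairpin of miR-675.

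The row of H19 (ENSMUSG00000000031.11) spans chr7:142575528-142578143 on build mm10. Both arms of miR-675 map to the minus strand inside that span in RefSeq (GRCm38.p6), and they are shown because they are the small RNA products of the transcript that defines the groups. Capitals mark the seed, bases 2 to 8, which differs between the arms. The 5p arm lies at chr7:142577112-142577133 and the 3p arm at chr7:142577078-142577099. The poly(A) libraries measured the host transcript, and neither arm has a value here.
mmu-miR-675-5p: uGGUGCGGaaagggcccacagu
mmu-miR-675-3p: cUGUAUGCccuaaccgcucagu

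A pair of cells stood apart before any comparison. Cells 23 and 24 had the same first 5 or more significant digits in 179 of the 322 rows in which both values had that many digits (55.6%). In 87 of those rows the value was the same, and in the others cell 24 was higher (44 rows) or lower (48 rows) by a whole power of 10. Meg3, for example, was listed at 110.272 in cell 23 and at 11027.2 in cell 24. The other 299 pairs of cells shared such digits in 1 of 73156 rows compared. These counts set digits side by side within a row only. Some values of cell 24 recurred in cell 23 in another row. Gm10125 was listed at 3.53701 in cell 23 and 4.19528 in cell 24, and D630024D03Rik at 4.19528 and 4.32. Likewise, 9530026P05Rik was listed at 4.32 and 5.43, and Gm16630 at 5.43 and 6.56. Rows of the pair with other digits are therefore not known to be sound. Cell 24 belongs to the H19 cells (H19 at 109) and cell 23 to the cells without H19 (H19 listed at 0). The labels do not account for the shared digits, their cause was not tested, and the counts over all rows, the list medians and the differences of named rows are given with both cells and without them, as 7 against 16 cells. Numbers of cells with a named row include both.

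The values are treated as FPKM, a measure per transcript length that also divides by all mapped fragments of a cell. The table lists 6910 rows, almost all lncRNAs, and 4157 of them reached 1 in at least 1 of the 25 cells. A row counts as detected in a cell at 1 or more. A difference is the mean of log2(FPKM + 1) over the H19 cells minus the mean over the other cells, which understates differences of low rows. None of the 16 HSC genes looked for, such as Kit and Procr, has a row, so the label HSC was not checked against coding markers. Rows were likewise lacking for all 12 erythroid, 12 lymphoid and 6 megakaryocyte markers, 12 of 13 myeloid markers and 10 of 12 stromal and endothelial markers. The myeloid marker with a row was Gm14005. It ran from 0 to 7.48 FPKM in H19 cells and from 0 to 9.12 in the others. Of the stromal markers, Dnm3os was listed at 0 in all 25 cells and Meg3 is described with the imprinted genes.

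H19 was either abundant or nearly absent in a cell. The 8 H19 cells held 88.6 (cell 2), 106 (cell 15), 109 (cell 24), 154 (cell 11), 167 (cell 20), 184 (cell 1), 872 (cell 22) and 1054 (cell 26) FPKM. H19 was listed at 0 in 12 of the other cells, and the remaining 5 held 0.166 to 0.514. The cell just inside the cut had 88.6 and the cell just outside it, cell 8, had 0.514, and a cut at 10 gives the same 8 cells. On the log2 scale the level was 7.75 ± 1.38 (SD over 8 cells) in H19 cells and 0.11 ± 0.20 (17 cells) in the others. Cells 22 and 26 stood above the other 6.

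The H19 cells and the other cells showed a like number of detected lncRNA rows. H19 cells had 404 to 761 detected rows, with a median of 533, and the other cells had 384 to 749, with a median of 594. Without cells 23 and 24 the medians were 550 and 577.5. The groups overlapped over nearly the whole range, and 6 H19 cells and 16 others lay between 404 and 749. The summed FPKM of the table per cell had a median of 11372 in H19 cells (7757 to 37739) and 9278 in the others (7186 to 13107). The highest sum belonged to cell 24, and without cells 23 and 24 the medians were 11234 and 9205. The 10 highest rows took a median of 31.5% of that sum in H19 cells and 30.3% in the others. Sequencing depth is unknown, since the table gives no read counts.

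**Figure D1:**
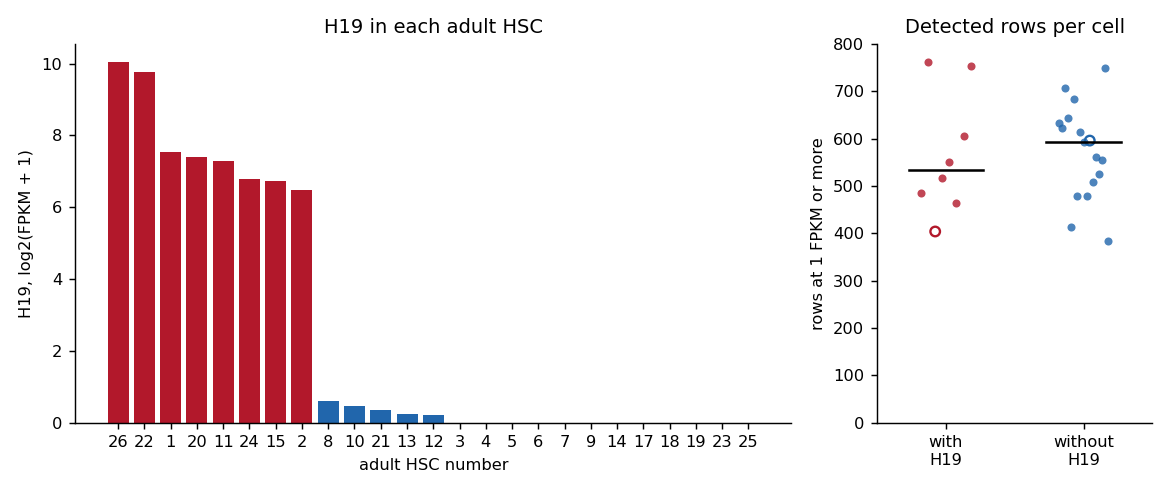
H19 as log2(FPKM + 1), 1 bar per adult HSC coloured by H19 group, and number of detected rows per cell by H19 group. In the panel of detected rows, points are cells, open circles are cells 23 and 24, and lines are medians. H19 leaves a gap between 0.514 and 88.6, while the numbers of detected rows overlap (404 to 761 against 384 to 749).

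Over all lncRNAs, the typical row was as high in H19 cells as in the others, and a minority of rows differed in either direction. A total of 877 rows other than H19 were at 1 or more in at least 5 of the 25 cells, whichever group those were in, and these were compared. A row could thus pass through 1 group alone, with 5 of the 17 other cells or 5 of the 8 H19 cells. The median difference was 0.02 on the log2 scale, with quartiles of -0.34 and 0.43. In 455 rows (51.9%) the mean was higher in H19 cells, and in 422 (48.1%) it was lower. The mean was higher by 1 or more in 65 rows (7.41%) and lower by 1 or more in 17 rows (1.94%). With each cell rescaled to the same sum the median row lay at -0.08, and 37 rows were higher and 21 lower by 1 or more. Without cells 23 and 24, 841 rows could be compared, of which 59 (7.02%) were higher and 20 (2.38%) lower by 1 or more. Of the 65 and 17 rows, 41 and 14 were also past that size without the pair. A mean over 8 cells moves more with 1 high cell than a mean over 17, so the counts in the 2 directions are not set against each other.

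Single cells held many of the high values. The highest value among H19 cells lay in cell 24 for 17 of the 65 higher rows, in cell 1 for 13, in cell 2 for 10 and in cell 22 for 9. Each H19 cell detected between 37 and 45 of the 65, which were chosen for a higher mean in these same cells. When any 1 of the 25 cells was left out, 20 rows (2.28%) stayed higher by 1 or more and 10 rows (1.14%) stayed lower. In no row (0%) did the values of the groups fail to overlap.

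By share of cells, the groups differed by 50 percentage points or more in few lncRNAs. Detection was that much more frequent in H19 cells for 4 rows (0.456%): RP24-439O10.3, Gm26533, Mypopos and Gm10603. It was that much less frequent for 3 rows (0.342%): 1700010J16Rik, RP23-448A11.8 and Gm28875. Without cells 23 and 24 the numbers were 5 (0.595%) and 4 (0.476%). Mypopos and Gm10603 fall outside the rule for naming genes and are named because the count is small.

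**Figure D2:**
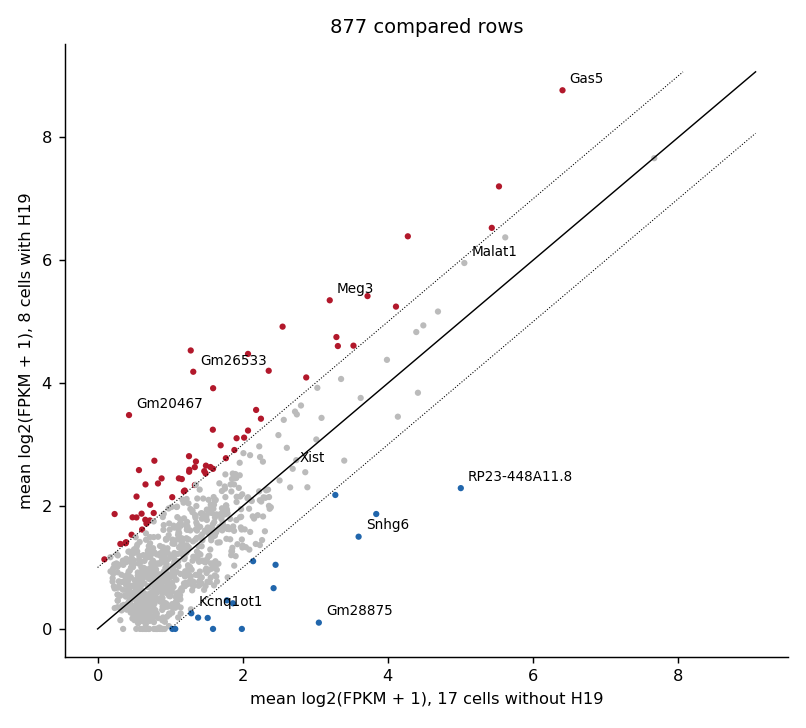
Mean log2(FPKM + 1) of each of the 877 rows in the 17 cells without H19 (horizontal) against the 8 H19 cells (vertical). Dashed lines mark differences of 1 in either direction: 65 rows lie above the upper line and 17 below the lower.

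Among the lncRNAs higher in H19 cells, Gas5 was the most abundant and the most evenly spread. Gas5 is the host transcript of a set of box C/D snoRNAs that guide methylation of ribosomal RNA, and its spliced RNA accumulates in growth-arrested cells. It was detected in all 8 H19 cells, at 214 to 650 FPKM with a median of 484. In the 17 other cells it ran from 0 to 1030, with a median of 231, and it was detected in 14. The means differed by 2.36 on the log2 scale, by 2.60 without cells 23 and 24, and by at least 1.96 with any 1 cell left out. Without cells 14, 21 and 25 together, the 3 cells least like the rest over the compared rows, Gas5 included, it was 0.99, under the size of 1. The groups overlapped: cells 5, 6, 8 and 12 had as much Gas5 as the highest H19 cells, and the contrast lay at the low end. Gas5 was listed at 0 in cells 14, 21 and 25 and lay at 1.87 in cell 7. Malat1, an abundant nuclear RNA, was listed at 0 in 3 cells without H19, and both RNAs were at 0 in 2 of them. None of the 8 H19 cells had either at 0. What part RNA quality plays in the Gas5 difference was not tested.

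Gas5 also overlaps the coding gene Zbtb37 in RefSeq, and since no strand is stated for the counting, reads of overlapping genes cannot be told apart. The promoter of the Gas5 start that begins with a run of pyrimidines is shown, because Gas5 is known as a 5′ terminal oligopyrimidine transcript, the class whose translation follows growth signals. It is the sequence of chr1:161034916-161035215, plus strand, from RefSeq (GRCm38.p6), 250 bases before to 50 bases after the start, with the transcribed bases in capitals. It holds 19 CG pairs (the letters CG, which read the same on both strands), and 28.1% of the 32851 mouse promoters in the table hold as many or more.
Gas5 promoter: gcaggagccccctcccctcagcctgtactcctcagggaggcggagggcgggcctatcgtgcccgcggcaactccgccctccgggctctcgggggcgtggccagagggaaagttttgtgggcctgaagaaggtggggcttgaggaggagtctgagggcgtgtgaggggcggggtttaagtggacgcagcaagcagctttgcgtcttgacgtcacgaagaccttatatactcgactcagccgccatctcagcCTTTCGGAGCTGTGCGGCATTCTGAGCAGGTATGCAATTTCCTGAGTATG

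The largest difference of all belonged to RP24-439O10.3 (ENSMUSG00000102961.1), a short row of 400 bases within the coding gene Fam20b. It was detected in 6 of 8 H19 cells (75.0%, exact Clopper-Pearson 95% interval 34.9 to 96.8%). In the others it was detected in 4 of 17 cells (23.5%, 6.81 to 49.9%). These intervals cover counting error over cells only. Its level ran from 0 to 144 FPKM with a median of 94.3 in H19 cells, and from 0 to 123 with a median of 0 in the others. The means differed by 3.25, and by 3.50 without cells 23 and 24. Of the H19 cells, 5 had over 80 FPKM, as did 2 of the other cells.

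Gm20467, a lncRNA row 1700 bases from the homeobox gene Nkx2-3, came next among rows with a known gene name. It was detected in 4 of 8 H19 cells, up to 224 FPKM, and in 2 of 17 others, up to 58.9. The difference was 3.05, and 3.52 without cells 23 and 24. It was thus present at over 70 FPKM in cells 1, 15, 20 and 26 and listed at 0 in the other 4 H19 cells. Gm26533, which overlaps the coding gene Ammecr1l, was detected in 7 of 8 H19 cells and 5 of 17 others. Its medians were 15.1 and 0 FPKM, its highest values 140 and 85.4, and the difference was 2.87 (3.38 without the pair). The H19 cell that lacked Gm26533 was cell 24.

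The other higher rows were spread over many chromosomes. 2410006H16Rik, 77 bases from Lrrc75a, was detected in 7 of 8 and 11 of 17 cells, with medians of 165 and 49.5 FPKM and a difference of 2.12. That direction turned, to -0.13, with every cell above 0 in H19 placed among the H19 cells, and the difference was 1.20 without the 3 cells least like the rest. E130307A14Rik, which overlaps Traf3ip2 and Rev3l, was detected in 7 and 9 cells, with medians of 22.2 and 1.62. Its highest value, 1416, lay in a cell without H19, and the difference was 1.84. Both rows were thus common in either group, with the higher median in the 8 H19 cells. 1810058I24Rik differed by 2.37, with medians of 103 and 0 FPKM, and 2210013O21Rik, whose name is in neither gene table, by 2.40, with medians of 77.4 and 1.28. 1810058I24Rik is a protein-coding gene in the RefSeq table, whereas the deposited table lists it among lncRNAs. 1110038B12Rik, 3958 bases from the heat shock gene Hspa1b, differed by 1.70, with medians of 96.9 and 11.3 FPKM. For these 5 rows the difference without cells 23 and 24 ran from 1.53 (E130307A14Rik) to 2.21 (2410006H16Rik).

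The remaining named higher rows were detected in 3 or 4 H19 cells each. A930005H10Rik was detected in 3 of 8 and 3 of 17 cells and differed by 2.02 (2.35 without cells 23 and 24). Trmt61b, listed as a lncRNA by RefSeq, was detected in 4 of 8 and 2 of 17 cells and differed by 1.96 (2.30 without the pair), but by 1.27 without cell 22, which held 188 FPKM. Gm20659, inside the phosphatase gene Dusp3, was detected in 4 of 8 and 4 of 17 cells and differed by 2.33, or 1.73 without cells 23 and 24. Gm20470, inside the gene of the microtubule-severing subunit Katna1, lay at 262 FPKM in cell 24 and at 15.6 or less in the other H19 cells. Its difference was 1.69 with the pair and 0.95 without.

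**Figure D3:**
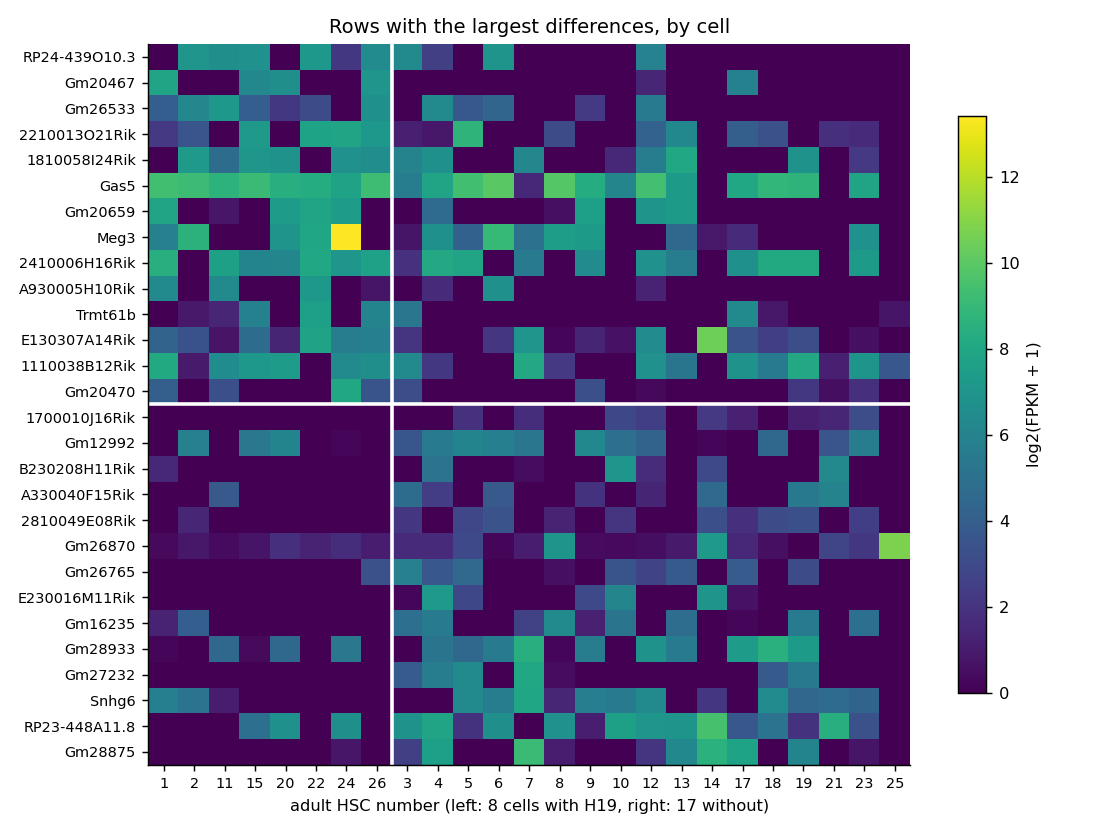
Heatmap of the leading rows in each cell, by H19 group. Colour gives log2(FPKM + 1). H19 itself is not drawn. In each leading row the groups overlap, and rows such as Gm28875 are above 1 FPKM in cells without H19 only.

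Among the lower rows, Gm28875 showed the widest gap. It lies 3791 bases from Syne3, and its function is not described here. Gm28875 was detected in 0 of 8 H19 cells, where the highest value was 0.766 FPKM (cell 24). It was detected in 9 of 17 others, up to 559 FPKM. Of those 9 cells, 5 held over 70 FPKM and the other 4 held 1.06 to 66.8. The difference was -2.95, and -3.19 without cells 23 and 24. Of the 17 cells without H19, 8 also lay below 1. Gm28875 passed the filter through cells without H19 alone.

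RP23-448A11.8, inside Rhoa, the gene of a small GTPase of the actin cytoskeleton, was the most common of the lower rows. It was detected in 3 of 8 H19 cells (37.5%, 8.52 to 75.5%) and in 15 of 17 others (88.2%, 63.6 to 98.5%). The medians were 0 and 103 FPKM, and the highest values 107 and 734. The difference was -2.71, and -3.44 without cells 23 and 24. The direction depended on the 5 cells with a trace of H19: with every cell above 0 placed among the H19 cells, 13 against 12, the difference was 0.23. Those 5 cells had 111 to 348 FPKM of RP23-448A11.8.

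Snhg6, the host of snoRNA U87, was detected in 3 of 8 H19 cells and 12 of 17 others. Its highest values were 54.8 and 239 FPKM, the medians were 0 and 20.8, and the difference was -2.10 (-1.83 without the pair). Among H19 cells it was detected in cells 1, 2 and 11. Snhg6 thus lay in the opposite direction to Gas5, which also hosts snoRNAs. E230016M11Rik, which overlaps the stress-response gene Gadd45a, was listed at 0 in all 8 H19 cells and detected in 5 of 17 others, up to 149 FPKM. Its difference was -1.59 (-1.69 without the pair). Gm27232, inside the transcription factor gene Rfx7, was listed at 0 in all 8 and detected in 6 of 17, up to 258, with a difference of -1.99 (-2.11 without the pair). Of the 17 cells without H19, 8 were below 1 in both rows. Both rows passed the filter through cells without H19 alone. The share of all compared rows detected in none of the 8 H19 cells is not given here, so their absence there is a description only.

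1700010J16Rik was also listed at 0 in all 8 H19 cells and was detected in 9 of 17 others, at no more than 8.04 FPKM. It too passed the filter through cells without H19 alone. The difference was -1.07, or -0.94 without cells 23 and 24. Gm28933, inside the transcription factor gene Foxn3, was detected in 3 of 8 and 10 of 17 cells, with a difference of -1.97 (-2.70 without the pair). Gm16235, Gm26765, 2810049E08Rik, A330040F15Rik and B230208H11Rik differed by -1.76 to -1.20, and by -1.51 to -1.25 without the pair. For B230208H11Rik the direction turned, to 0.56, with H19 above 0 against 0. In each of these 5 rows, 1 or 2 of the 8 H19 cells were at 1 or more. Gm12992, overlapping the splicing factor gene Srsf4, differed by -1.10, or -0.67 without the pair. Gm26870, at the start of chromosome 9, differed by -1.41 (-1.53 without the pair). Cell 25 held 1745 FPKM, and without cell 25 the difference was -0.89 and without the 3 cells least like the rest -0.45.

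Of the imprinted lncRNAs other than H19, Kcnq1ot1 was less often detected in H19 cells, and Meg3 and Airn were higher on average. Of 19 imprinted lncRNAs looked for, 8 had a row besides H19 and 3 were in enough cells to be compared: 2 were higher by 1 or more, 1 was lower by 1 or more, and their median difference was 1.12 (0.52 without cells 23 and 24), against 0.02 over all 877 rows. Of all 877 rows, 7.41% were higher and 1.94% lower by 1 or more. Rian, Mirg and Nespas were in too few cells, and Igf2os and Nctc1 were listed at 0 in all 25.

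Kcnq1ot1 is transcribed from the paternal chromosome antisense to Kcnq1 and silences neighbouring genes, and it lies 634011 bases from H19 in the same imprinted region of chromosome 7. It was at 2.07 FPKM in H19 cell 20, at 0.161 and 0.151 in cells 11 and 24, and listed at 0 in the other 5. In the 17 other cells it ran from 0 to 6.54, with a median of 1.16. Detection was thus in 1 of 8 H19 cells (12.5%, 0.316 to 52.7%) and 10 of 17 others (58.8%, 32.9 to 81.6%). The difference was -1.04 with and without cells 23 and 24, and -1.23 to -0.94 with any 1 cell left out. All these levels are low, and 7 of the 17 cells without H19 also lay below 1. The intervals cover counting error over cells only and are not a comparison of the groups. Its promoter, shown because Kcnq1ot1 is the compared row nearest to H19, is chr7:143296498-143296797 on the minus strand (RefSeq, GRCm38.p6), with the 50 transcribed bases in capitals. It holds 9 CG pairs, and 45.8% of promoters hold as many or more.
Kcnq1ot1 promoter: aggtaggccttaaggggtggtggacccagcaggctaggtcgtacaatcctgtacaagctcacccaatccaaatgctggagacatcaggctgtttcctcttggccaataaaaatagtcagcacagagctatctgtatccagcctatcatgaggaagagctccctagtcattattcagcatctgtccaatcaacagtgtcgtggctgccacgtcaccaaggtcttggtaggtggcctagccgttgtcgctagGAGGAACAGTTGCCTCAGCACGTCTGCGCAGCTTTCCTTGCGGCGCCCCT

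Within 1000000 bases of H19 on either side, 14 other rows are listed. Of these, 9 were at 0 in all 25 cells and 5 reached 1 in any cell. Besides Kcnq1ot1, each of those was detected in a single cell: R74862 and Gm28821 in an H19 cell, and Gm20501 and Tspan32os in a cell without H19. Most listed neighbours of H19 thus had no value above 0 in either group, and with depth unknown a low level was not detectable there.

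Meg3 is the maternally expressed lncRNA of the imprinted Dlk1-Dio3 cluster on chromosome 12, host to a large group of miRNAs, and has been tied to HSC function in the fetal liver. Meg3 was detected in 5 of 8 H19 cells and 9 of 17 others. In H19 cells it was listed at 0 in cells 11, 15 and 26 and lay at 55.8, 124, 245, 394 and 11027 FPKM in the other 5. In cells without H19 it ran from 0 to 506, with a median of 2.07. The means differed by 2.15, and by 1.22 without cells 23 and 24. The value of cell 24, whose digits repeat in cell 23 at 110.272, set the upper end. By cells, 5 had both RNAs, 3 had H19 without Meg3, 9 had Meg3 without H19 and 8 had neither. Without the pair these were 4, 3, 8 and 8. A pure split of HSCs into cells with both maternal RNAs and cells with neither was therefore not seen.

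Airn, a paternal transcript antisense to Igf2r, was detected in 5 of 8 and 9 of 17 cells. The highest H19 cell was cell 24 at 74.7 FPKM, and the highest of the others held 5.25. The difference was 1.12, or 0.52 without cells 23 and 24, so 1 cell of the pair holds much of it.

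Host genes of snoRNAs did not share a direction. Of 24 looked for, 13 had a row and 7 could be compared: 3 were higher and 4 lower, 1 of each by 1 or more (Gas5 and Snhg6), and the median was -0.26 (-0.64 without cells 23 and 24). Over all compared rows, 7.41% were higher and 1.94% lower by 1 or more. Snhg1 was detected in 3 of 8 H19 cells and 11 of 17 others, with medians of 0.536 and 2.03 FPKM and a difference of -0.37 (-0.64 without the pair). Snhg7 was detected in 1 and 4 cells and differed by -0.69 (-0.70 without the pair). With H19 above 0 against 0, the differences of Snhg1 and Snhg7 turned to 0.54 and 0.69. Snhg12 differed by 0.13, or 0.44 without the pair, and by -0.54 to 0.67 with any 1 cell left out. Snhg5 differed by 0.01, or -0.80 without the pair, and by -0.72 to 0.40 with any 1 cell left out. The direction of both thus depended on single cells.

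Nuclear lncRNAs likewise varied. All 5 compared of 14 looked for are named here, and their median was 0.39 (0.02 without cells 23 and 24). Neat1, the scaffold of paraspeckles, was detected in 7 of 8 and 12 of 17 cells, with medians of 35.2 and 20.0 FPKM and a difference of 1.08. That difference was 0.81 without the pair. Malat1 was detected in 8 of 8 and 14 of 17 cells. Its medians were nearly the same, 62.5 and 61.0 FPKM, while the means differed by 0.90 (1.07 without the pair), with 3 of the 17 other cells listed at 0. The difference was 0.29 without the 3 cells least like the rest, and it turned to -0.30 with H19 above 0 against 0. Tug1 differed by 0.39, but by 0.02 without the pair. Firre, an X-linked RNA that organises nuclear contacts, differed by -0.87 (-0.92 without the pair), and Kcnq1ot1 has been given above.

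On the X chromosome, Xist, which coats the inactive X, was detected in 6 of 8 and 13 of 17 cells. Its medians were 5.97 and 7.19 FPKM, and the difference was -0.08, of changing sign with single cells left out (-0.44 to 0.29). It was -0.65 without the 3 cells least like the rest. Ftx, a positive regulator of Xist and a miRNA host, was higher by 1.05 (1.22 without the pair), or 0.45 without cell 20, which held 89.2 FPKM. Tsix, the antisense partner of Xist, differed by -0.62 (-0.87 without the pair), and since it overlaps Xist their reads cannot be told apart without strand. These 3 of the 8 X inactivation lncRNAs looked for had a median of -0.08 (-0.13 without cells 23 and 24).

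Of the 24 blood cell lncRNAs looked for, 9 could be compared, with 5 higher, 4 lower, 1 (Gas5) higher by 1 or more and a median of 0.01 (0.05 without cells 23 and 24). Over all compared rows, 7.41% were higher by 1 or more. Gm14005, known as Morrbid, controls the death gene Bcl2l11 in short-lived myeloid cells. It was detected in 2 of 8 H19 cells and 11 of 17 others and differed by -0.83 with and without the pair. Mir99ahg, host of the miR-99a, let-7c and miR-125b-2 cluster, showed the same numbers, 2 and 11 cells, with medians of 0.451 and 2.62 FPKM and a difference of -0.74 (-0.73 without the pair). Both were frequent in cells without H19 and sparse in H19 cells, at levels under 10 FPKM. With H19 above 0 against 0, the differences shrank to -0.36 for Gm14005 and -0.08 for Mir99ahg. Pvt1, downstream of Myc, was detected in 6 of 8 and 13 of 17 cells and differed by 0.39 (0.33 without the pair).

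Of the 16 lncRNAs of growth control and the p53 response, 7 could be compared. All 7 had a higher mean in H19 cells, where 51.9% of all rows did. In 3 of them (Gas5, Meg3 and Neat1) the difference was 1 or more, and without cells 23 and 24 it was so in 2. Over all compared rows, 7.41% were higher by 1 or more, and 7.02% without the pair. Gas5, Meg3 and Neat1 are also counted in other lists. The median of the 7 was 0.39, and 0.33 without the pair. The other 4 differed by little: Dleu2, host of miR-15a and miR-16-1, by 0.11, Trp53cor1 (lincRNA-p21) by 0.23, and Pvt1 and Tug1 by 0.39 each. Without the pair these were 0.26, 0.29, 0.33 and 0.02. The difference of Dleu2 was -0.64 without cell 1, which held 137 FPKM. Of 22 miRNA hosts, 5 could be compared, with 3 higher, 2 lower and a median of 0.11 (0.26 without the pair). Embryonic and pluripotency lncRNAs gave 3 of 29, with a median of 0.47 (0.78 without the pair): Meg3, Pantr1, which differed by 0.47 (0.78 without the pair), and 1700020I14Rik, which differed by -0.53 (-0.49 without the pair). With H19 above 0 against 0, Pantr1 and 1700020I14Rik turned to -0.04 and 0.10. Of 15 Hox cluster lncRNAs, 1 could be compared: Hoxb3os was detected in 2 of 8 and 5 of 17 cells and differed by -0.52 (-0.89 without the pair).

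**Figure D4:**
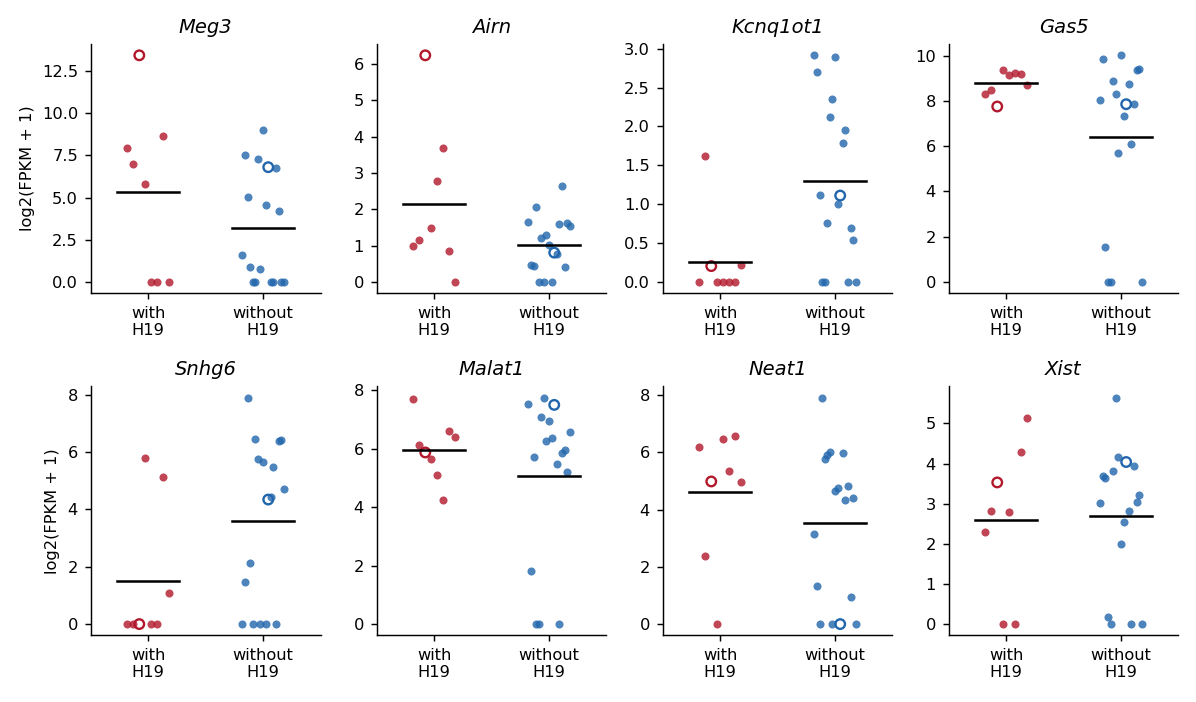
log2(FPKM + 1) of well-known lncRNAs in each cell, by H19 group. Points are cells, open circles are cells 23 and 24, and bars are means. Gas5 is present in all 8 H19 cells, Kcnq1ot1 is at 1 FPKM or more in 1 of 8 against 10 of 17, and 3 cells without H19 are at 0 in Malat1.

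The rows past the size of 1 in either direction had shorter spans, by median, than the compared rows as a whole. Their median span was 9543 bases in the 65 higher rows and 10699 in the 17 lower, against 34730 over all 877. A coding gene was overlapped by 60.0% of the higher and 64.7% of the lower rows, against 55.4% of all. Chromosome 7, which holds H19, carried 7 of the 65 higher rows, 1 of the 17 lower and 44 of all 877. Short rows were frequent in both directions.

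H19 cells were about as like each other as they were like the other cells. The Spearman correlation over the compared rows had a median of 0.198 over the 28 pairs of H19 cells, 0.159 over the 136 pairs of cells without H19 and 0.189 over the 136 mixed pairs. Rows are not independent replicates, and many zeros are shared. The highest value of all 300 pairs, 0.444, was that of cells 23 and 24. Without them the medians were 0.189, 0.153 and 0.179. The cells least like the rest, 25, 14 and 21, were all below the H19 cut, cell 21 with a trace of 0.278 FPKM. Pairs of H19 cells ran from 0.155 to 0.272, mixed pairs from 0.026 to 0.444 and pairs of cells without H19 from -0.052 to 0.302. The range of H19 pairs thus lay inside both others. Whether H19 cells form a group of their own by their other lncRNAs was not tested.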

How the data were processed

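Poly(A) RNA of single adult HSCs was measured, 1 cell per library. The authors deposited 1 table of these cells without naming its unit. The values were treated as FPKM because Cufflinks 2.1.0 and build mm10 appear in the submitters' processing notes. Which aligner, annotation and strand setting were used, and how reads shared between paralogues were treated, is not given in the sources used here. No value above 0 lies under 0.100, so an exact 0 can be a low or failed estimate and is called listed at 0. FPKM divides by a cell's total, so a very high row lowers the others. Depth and counting error per row are unknown.

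Of the columns, 2 share 1 name (cell 16) and were not used. In cell 23, 1 value was blank. It was left out of means, counted as not detected, and read as 0 for the correlations. From the deposited FPKM, mean log2(FPKM + 1) and shares of cells at 1 or more were computed with Python 3.11.15, pandas 2.3.3 and scipy 1.17.1, for rows at 1 or more in at least 5 of the cells used. Intervals are exact Clopper-Pearson, 95%. The computation was checked on simulated data. No test was made: no animal is named, and H19 of the same cells sets the groups. Row names matched the gene tables given for 5119 of 6910 rows. Sequences come from RefSeq (GRCm38.p6), which had a promoter for 24 of the 46 named rows.

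Named are H19, Meg3, the 12 largest differences in each direction under a matched name, the 2 largest in each direction under an unmatched name, and from each list the 4 compared members that differed most. For the largest differences, means and shares had to differ in the same direction, which was not asked of list members. The members and lists were chosen with earlier results of these data known. Tug1, Snhg5, Snhg12, Trp53cor1 and the neighbours of H19 were added to complete lists or a region. Alternatives were pseudocounts, filters, equal sums, other H19 cuts, cells in a common range of detected rows, an adjustment for detected rows, medians, other detection thresholds and leaving out cells.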

Additional observations from a re-analysis of the deposited data

Results flagged for a closer look

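In each group of values over the 8 H19 cells, the highest and the lowest cell were compared with the nearest other cell. A cell stood apart where that gap was over 0.526 of the whole range. Of 47 sets of values looked at, 21 had such a cell, always the highest. Chance flags about 1 in 20 groups of normally distributed values. That rate does not apply to FPKM with many zeros, and in 7 of the 21 sets all other H19 cells were at 0, which sets the gap to the whole range.

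Cell 24 stood apart most often. Its summed FPKM was 37739, and its 10 highest rows took 68.3% of that sum. It also held the highest Meg3 (11027 FPKM), Gm20470 (262), Airn (74.7), Tsix (7.02) and Gm28875 (0.766). Cell 24 is the cell that shares digits with cell 23.

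Cell 22, with the second-highest H19, stood apart in Trmt61b (188), E130307A14Rik (210.1) and Malat1 (205). Cell 1 did so in Dleu2 (137) and B230208H11Rik (1.77). Cell 20 did so in Ftx (89.2), Gm14005 (7.48) and Kcnq1ot1 (2.07). Cell 2 had the highest Hoxb3os (57.6), Snhg7 (8.57), 2810049E08Rik (1.69) and Gm16235 (14.9). A330040F15Rik was highest in cell 11 (12.2) and Gm26765 in cell 26 (9.13). Most of these rows were at or near 0 in the other H19 cells.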

How the results depend on the processing

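The number of rows past the size of 1 depended on how low values were treated. The 65 higher rows became 182 with a pseudocount of 0.1, 13 with a pseudocount of 10, 37 with rows at 1 or more in at least 10 cells, 37 with equal sums, and 28 with H19 above 0 against 0. The 17 lower rows became 133, 4 and 8 under the first 3 of these, 46 in cells of the common range of detected rows, and 52 with medians over cells. Rows detected more often by 50 points (4) became 10 in the common range and 2 with H19 above 0, with detection at 5 or with equal sums. Those detected less often (3) became 14 in the common range, 1 with H19 above 0, 1 with at least 10 cells and 0 with detection at 5. Without the 3 cells least like the rest, an alternative chosen after seeing the data, they were 6. Leaving out each cell in turn gave 53 to 79 higher rows and 12 to 26 lower, the latter without cell 20. It gave 4 to 7 rows of higher share (7 without cell 3 or 24) and 2 to 7 of lower share (7 without cell 20, 6 without cell 1, 4, 5, 21 or 25, 5 without cell 3, 12 or 13). With H19 above 0 against 0, the differences of 2410006H16Rik, B230208H11Rik and RP23-448A11.8 turned to -0.13, 0.56 and 0.23, those of Malat1, Pantr1, 1700020I14Rik, Snhg1 and Snhg7, all under 1 in size, to -0.30, -0.04, 0.10, 0.54 and 0.69, and the medians of nuclear and snoRNA host lncRNAs to -0.30 and 0.54. With medians over cells, the imprinted and embryonic lists lay at 0.29 and 1.14. The causes were not tested. No paired analysis was possible because the replicate numbers only number cells of 1 labelled group.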
